A study of Rattus norvegicus with 6 samples.

Results

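The 10 genes described here belong to the calcium-dependent membrane scaffold of the fibroblast and its relatives: Ahnak, its partners S100a10 and Anxa2, the S100 genes S100a4, S100a6 and S100a11, the annexins Anxa1 and Anxa5, and the galectins Lgals1 and Lgals3. They were taken by symbol from a table of 17143 genes, and 10 of 10 were found. Ahnak was chosen because it was already known to be lower on both treated matrices in these data, and Lgals1 was known to be abundant. The other members were chosen as partners or relatives of Ahnak, with earlier results of these data known. All values against native matrix are therefore given as a description.

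Transcripts were measured in Rat-1, an established line of rat fibroblasts, at 4 h after 25000 cells had been placed in each well on extracellular matrix (ECM). The matrix was native and untreated (2 libraries), had been remodelled by matrix metalloproteinase 1, here the MMP1 matrix (2 libraries), or by matrix metalloproteinase 13, here the MMP13 matrix (2 libraries). Both enzymes are secreted collagenases. All groups shared the cell line, the serum-containing medium and the time, and adhering cells were lysed on the matrix for 3' end RNA sequencing. The labels call the libraries duplicates without saying whether they were separate cultures, so errors measure how these libraries vary, possibly for technical reasons only.

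AHNAK is a very large scaffold protein found beneath the plasma membrane. Its C-terminal end binds a complex of annexin A2 with S100A10, a small protein of the EF-hand family that, unlike its relatives, holds its active shape without calcium. Annexins bind acidic phospholipids when calcium rises and take part in membrane repair and vesicle traffic, and most S100 proteins are calcium-triggered dimers that dock on annexins and other targets. Galectins bind beta-galactoside sugars on matrix and cell surface glycoproteins.

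Upstream sequence was available for 7 of the 10 genes in the RefSeq promoter table of the rat build GRCr8, matched by symbol. The windows shown are those of Ahnak and of Anxa2 and S100a11, which lay on the other side of native in all 4 treated libraries. Lgals1, which did so as deposited, was not among the 7. The share of all genes above native in all 4 treated libraries was not computed. Each run holds the 250 bases before the annotated start, 5′ to 3′ on the strand of the gene, with motif matches in capitals. Ahnak lies at chr1:215311104-215311353, Anxa2 at chr8:78986002-78986251 and S100a11 at chr2:181874882-181875131, all on the plus strand.
Ahnak: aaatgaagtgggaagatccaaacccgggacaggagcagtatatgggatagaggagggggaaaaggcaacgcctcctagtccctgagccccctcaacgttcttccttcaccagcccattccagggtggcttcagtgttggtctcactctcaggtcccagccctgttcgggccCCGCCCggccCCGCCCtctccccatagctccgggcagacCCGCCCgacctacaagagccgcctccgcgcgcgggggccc
Anxa2: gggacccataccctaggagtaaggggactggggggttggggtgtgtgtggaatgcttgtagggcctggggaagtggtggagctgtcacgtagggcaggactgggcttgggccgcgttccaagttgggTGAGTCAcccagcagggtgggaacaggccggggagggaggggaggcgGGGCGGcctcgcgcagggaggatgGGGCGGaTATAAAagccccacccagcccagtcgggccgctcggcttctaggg
S100a11: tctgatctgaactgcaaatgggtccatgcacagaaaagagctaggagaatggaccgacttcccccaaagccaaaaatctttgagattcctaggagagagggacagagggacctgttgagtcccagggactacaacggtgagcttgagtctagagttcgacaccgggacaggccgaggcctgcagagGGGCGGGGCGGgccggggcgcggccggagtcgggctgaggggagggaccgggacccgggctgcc

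A set of 6 motifs was searched on both strands of these 250-base windows. The GC box GGGCGG had 3 matches before Ahnak, all on the opposite strand, 2 before Anxa2 and 2 overlapping ones before S100a11, and it was present in 30.5% of the 33469 windows in the table. The Anxa2 window alone of the 3 held the AP-1 site TGANTCA (in 6.34% of all windows) and the TATA box TATAAA (12.9%). The CCAAT box, the NRF2 element TGACNNNGC and the CArG box had no match in any of the 3, and were present in 34.0%, 10.1% and 1.50% of all windows. GC content was 64.8% for Ahnak, 67.2% for Anxa2 and 62% for S100a11, against a median of 51.2%. A match describes letters only, and no binding was measured here.

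Values are the deposited reads divided by 1 size factor per library, called units. One read was worth 0.735 to 1.68 units, library totals ran from 161817 to 362122 reads, and the 10 genes together took 1.95% to 2.22% of them. The fibroblast marker list (8 of 8 genes with reads, Col1a1 and Vim among them) summed to between 5316 and 6019 units per library. Within it Fn1, the fibronectin gene, was at 965 and 921 units on native matrix and at 699 to 766 in the treated libraries. Pdgfrb was at 38.9 and 39.2 and at 27.6 to 36.5, so both genes were lower without overlap. Sparc went the other way, at 700 and 794 units on native matrix and 802 to 917 in the treated libraries, also without overlap. On MMP1 matrix 18.8% of all tested genes lay below native without overlap and 19.6% above, and on MMP13 matrix 18.6% and 18.9%. A leukocyte list, relevant because leukocytes also express several S100 and galectin genes, took at most 0.0182% of reads. It summed to 22.6 to 29.2 units on native matrix, 42.4 to 49.2 on MMP1 and 30.2 to 40.4 on MMP13 matrix. All 7 listed genes in the table had a read in some library. Csf1r, at 6.79 to 24.0 units, and Cd14, at 10.1 to 21.6, had reads in every library. Both had higher means on the treated matrices than on native, with overlapping libraries on MMP13 matrix. Ptprc, the pan-leukocyte marker, was at 0 in 3 of the 6 libraries and at most 5.84 units. A tenocyte list (2 of 3 genes in the table), mostly Scx, summed to 45.0 to 47.5 units on native, 38.4 to 42.4 on MMP1 and 23.5 to 36.8 on MMP13 matrix. Epithelial, endothelial, muscle and adipocyte lists reached at most 14.6 units each. Rn45s, an entry for the ribosomal RNA precursor, took 0.293% to 0.347% of reads on native and 0.661% to 0.968% on treated matrices. The part of these shifts in the values below was not tested, and in bulk RNA fewer cells of a type and less RNA per cell cannot be told apart.

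Ahnak was about 30% lower on both treated matrices. It lay at 635 and 639 units in the native libraries, at 416 and 453 on MMP1 matrix, and at 408 and 495 on MMP13 matrix. The 4 treated libraries were all below both native ones, and the native pair was nearly equal while the MMP13 pair was spread. The mean fell by 31.8% on MMP1 and by 29.1% on MMP13 matrix. The log2 folds were -0.55 (95% interval -0.82 to -0.29) and -0.50 (-0.77 to -0.24), from a limma fit on log2(value + 1) over all 7284 genes tested. Leaving out 1 library at a time moved them between -0.61 and -0.49 and between -0.64 and -0.36. With the error of Ahnak itself the intervals were -0.95 to -0.16 and -0.90 to -0.11. These are the values that chose Ahnak, so folds and intervals are a description of these libraries.

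Neither partner in the complex passed the test, and neither had a negative fold. Anxa2, the annexin of the complex, lay at 273 and 334 units on native matrix. It was at 384 and 403 on MMP1 and at 418 and 385 on MMP13 matrix. All 4 treated libraries were above both native ones, the reverse of Ahnak. Of all tested genes 19.6% lay above native without overlap on MMP1 and 18.9% on MMP13 matrix. The share that did so on both was not computed. The log2 fold was 0.38 (0.08 to 0.68) on MMP1 and 0.41 (0.11 to 0.70) on MMP13 matrix, and with the error taken from Anxa2 itself the intervals were -0.04 to 0.80 and -0.01 to 0.82. Anxa2 did not pass at an adjusted p of 0.05 in either comparison. Without native replicate 2 and native replicate 1 in turn, the MMP1 fold was 0.52 and 0.23 and the MMP13 fold 0.55 and 0.26.

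S100a10, which bridges annexin A2 and AHNAK, lay at 439 and 374 units on native matrix. It was at 444 and 522 units on MMP1 and at 507 and 363 on MMP13 matrix. The MMP1 libraries were above native by a narrow margin, and the MMP13 pair spanned the native one. The log2 folds were 0.25 (-0.03 to 0.53) and 0.08 (-0.19 to 0.36), and neither passed. Replicates of S100a10 scattered 1.69 times as widely as the trend that set these intervals, and with its own error they were -0.51 to 1.01 and -0.68 to 0.84. The MMP1 fold of S100a10 was 0.13 without MMP1 replicate 2 and 0.13 without native replicate 2. The MMP13 fold was -0.16 without MMP13 replicate 1 and -0.03 without native replicate 2.

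**Figure D1:**
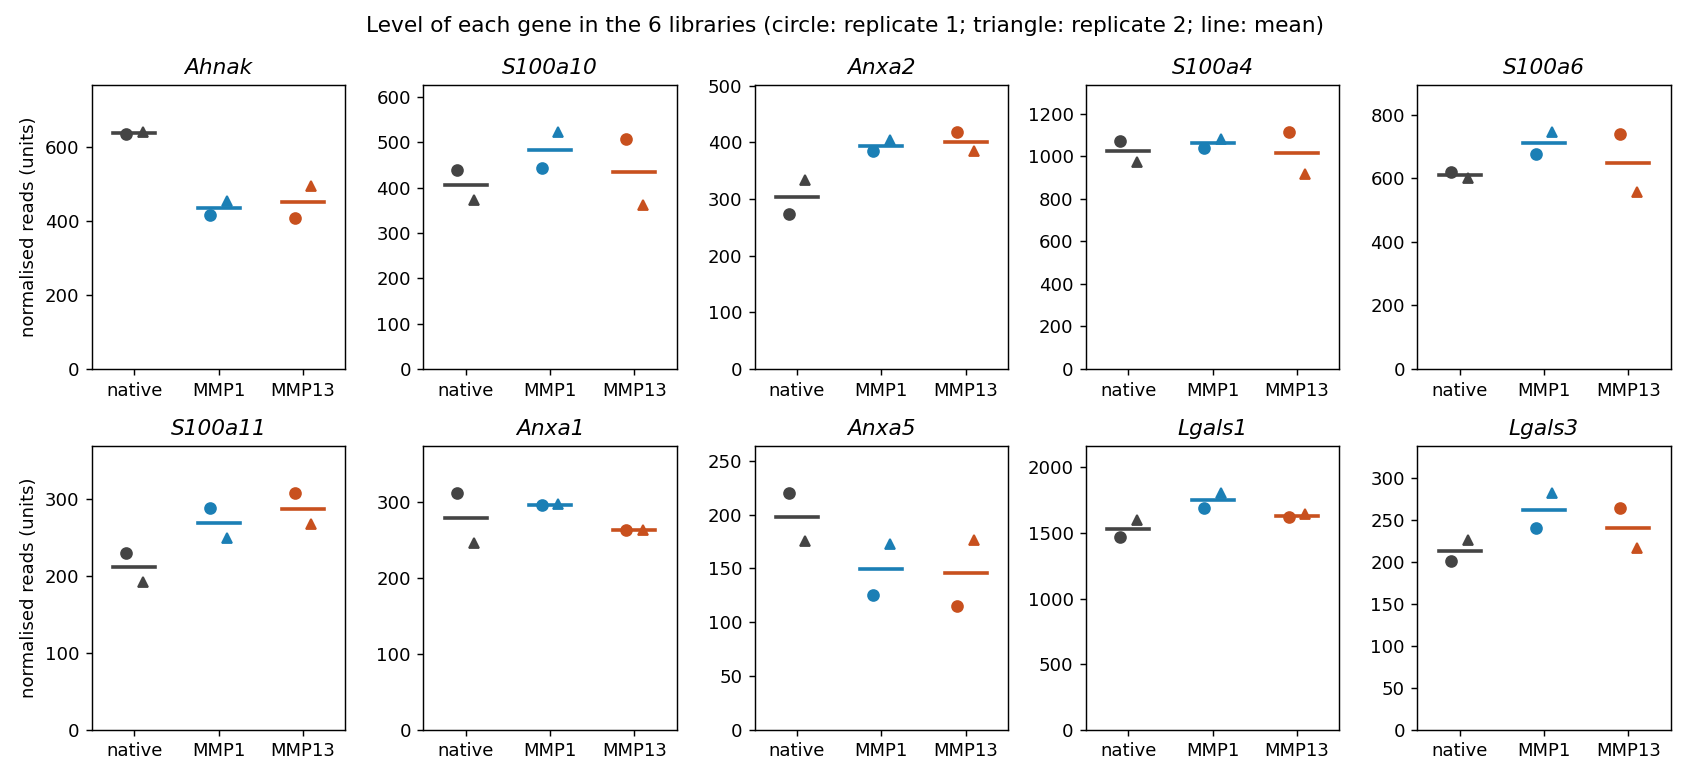
Level of each of the 10 genes in normalised reads (units, vertical axis from 0) in the 2 native, 2 MMP1 and 2 MMP13 libraries, with replicate 1 as a circle, replicate 2 as a triangle and the group mean as a line. Ahnak drops from 635 and 639 units on native matrix to between 408 and 495 on the treated ones. Anxa2, S100a11 and, as deposited, Lgals1 lie above native in all 4 treated libraries. The share of all genes that do so was not computed.

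A ratio of 2 genes within a library does not depend on the size factors. Ahnak exceeded S100a10 in both native libraries, with 0.692 and 0.584 S100a10 units per Ahnak unit. This ratio was 1.07 and 1.15 on MMP1 matrix and 1.24 and 0.732 on MMP13 matrix. MMP13 replicate 2 was thus close to native replicate 1, and the other 3 treated libraries had more S100a10 than Ahnak. Anxa2 per Ahnak was 0.431 and 0.523 on native, 0.923 and 0.891 on MMP1 and 1.02 and 0.776 on MMP13 matrix, with no overlap between treated and native. In log2 the Anxa2 ratio was higher by 0.93 on MMP1 and 0.91 on MMP13 matrix, and the S100a10 ratio by 0.80 and 0.58. With 2 libraries against 2, an exact permutation test cannot go below p = 0.333, and the denominator was chosen for its fall, so no p is given.

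Of the 9 ratios to Ahnak, 8 were above both native libraries in all 4 treated libraries. The exception was Anxa5, where the ratio differed from native by 0.14 on MMP1 and 0.04 on MMP13 matrix in log2, with overlapping libraries. Because all 9 share the same denominator, these are not separate observations. Ahnak itself was lower in all 4 treated libraries, so a gene that stayed level would also tend to rise in this ratio. S100a4, whose own log2 folds were 0.05 and -0.02, was among the 8. The share of all genes that would do so was not computed, so the count says nothing particular to these genes. Within the annexin A2 complex itself, S100a10 per Anxa2 was 1.60 and 1.12 on native, 1.16 and 1.29 on MMP1 and 1.21 and 0.943 on MMP13 matrix. These values overlapped between the groups, and the native pair spanned all but 1 of the treated libraries.

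**Figure D2:**
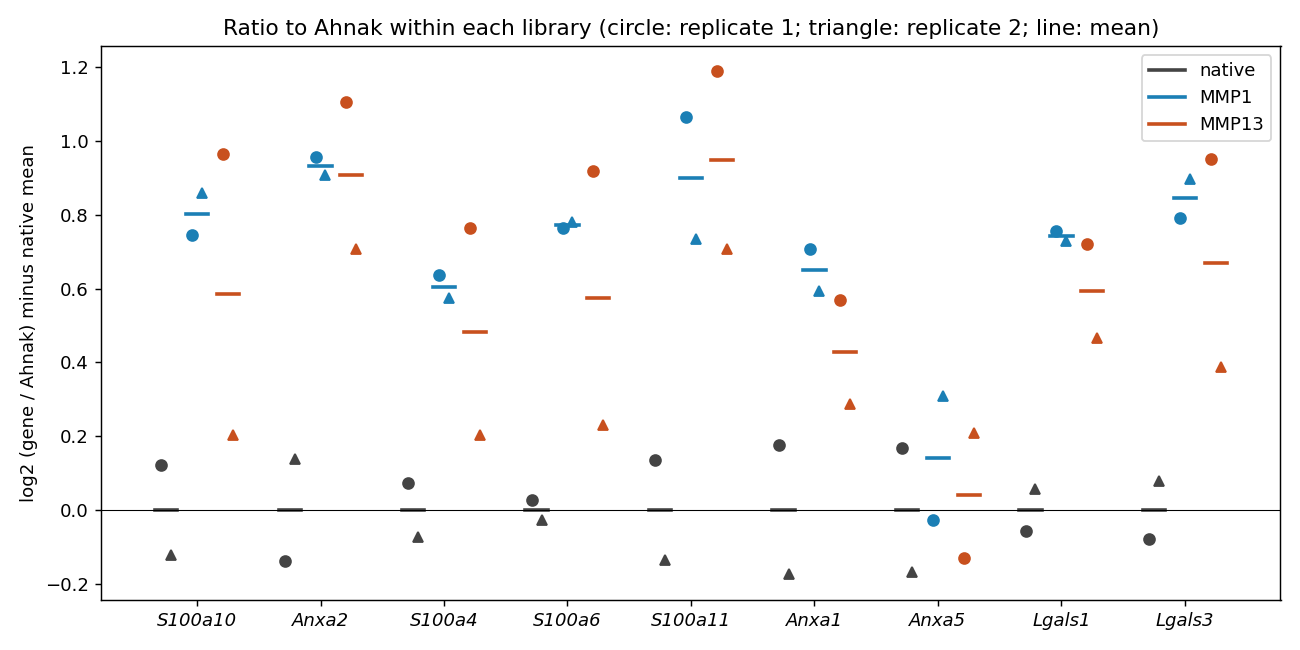
Log2 ratio of each other gene to Ahnak within a library, minus the mean of the native libraries (vertical axis), for native, MMP1 and MMP13 libraries (circle, replicate 1; triangle, replicate 2; line, mean). For 8 of the 9 genes all 4 treated libraries lie above both native ones, and for Anxa5 they do not. Ahnak, the shared denominator, was itself lower in all 4 treated libraries, and the share over all genes was not computed.

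The other S100 genes ranged from small positive folds to none. S100a11, which docks on annexin A1, was at 230 and 192 units on native matrix, 288 and 248 on MMP1 and 307 and 267 on MMP13 matrix. Every treated library was above both native ones, with log2 folds of 0.35 (0.01 to 0.69) and 0.45 (0.11 to 0.79), which did not pass. The share of all genes above native in every treated library was not computed. With its own error the S100a11 intervals were -0.16 to 0.86 and -0.06 to 0.96. Without native replicate 2 its folds were 0.22 and 0.32.

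S100a6, or calcyclin, lay at 620 and 601 units on native matrix, 678 and 745 on MMP1 and 741 and 557 on MMP13 matrix. The MMP1 libraries were above native and the MMP13 pair enclosed it, with log2 folds of 0.22 (-0.02 to 0.46) and 0.07 (-0.17 to 0.31). The MMP13 fold of S100a6 was -0.13 without MMP13 replicate 1. S100a4, which binds non-muscle myosin heavy chain, was nearly level, at 1072 and 974 units on native matrix, 1040 and 1082 on MMP1 and 1113 and 915 on MMP13 matrix. Its log2 folds were 0.05 (-0.15 to 0.26), which turned to -0.02 with quantile scaling and to -0.0067 with TMM factors, and -0.02 (-0.22 to 0.19), which was 0.0021 by edgeR and 0.12 without MMP13 replicate 2. Without native replicate 2 the MMP1 fold of S100a4 was -0.016, and without native replicate 1 the MMP13 fold was 0.05. All 4 S100 genes, and Lgals3, were lower in MMP13 replicate 2 than in MMP13 replicate 1. The 4 S100 genes summed to 2668 units in MMP13 replicate 1 and 2102 in replicate 2, against 2361 and 2140 on native. MMP13 replicate 2 was also the shallowest library and replicate 1 the deepest. The part of depth in this gap was not tested.

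In the RefSeq gene order of GRCr8, S100a3, S100a4, S100a5 and S100a6 followed each other on chromosome 2, and S100a11 and S100a10 were neighbours on the same chromosome. Next to S100a4 and S100a6, S100a3 reached at most 4.38 units and S100a5 at most 10.1 in any library, with 0 reads in 2 and 4 of the 6. Neighbouring genes of this family thus differed widely in level in these cells. Levels of different genes are reads from 3' ends and were not divided by length. Whether 1 transcript gave 1 read is not known. Differences in 3' end capture between genes were not checked.

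The annexins differed among themselves. Anxa5, which binds exposed phosphatidylserine, was at 220 and 175 units on native matrix, 126 and 173 on MMP1 and 115 and 176 on MMP13 matrix. In both treated groups replicate 1 was well below native while replicate 2 was about level with native replicate 2. The log2 folds were -0.41 (-0.81 to -0.01) and -0.46 (-0.86 to -0.06) and did not pass. Anxa5 replicates scattered 1.66 times as widely as the trend, and with its own error the intervals were -1.50 to 0.67 and -1.55 to 0.62. Without MMP1 replicate 1 the MMP1 fold of Anxa5 was -0.18, and without MMP13 replicate 1 the MMP13 fold was -0.15.

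Anxa1, the lipocortin known for its anti-inflammatory action, lay at 312 and 247 units on native matrix. It was at 296 and 298 on MMP1 and at 264 and 264 on MMP13 matrix. Both treated pairs lay inside the native range, with log2 folds of 0.10 (-0.23 to 0.42) and -0.07 (-0.40 to 0.25). The MMP1 fold of Anxa1 was -0.07 without native replicate 2, and the MMP13 fold was 0.10 without native replicate 1. S100a11 per Anxa1 was 0.735 and 0.777 on native, 0.970 and 0.835 on MMP1 and 1.16 and 1.01 on MMP13 matrix, so the treated libraries did not overlap the native ones. Of the other ratios formed without Ahnak, S100a10 per Anxa2 overlapped native on both matrices. S100a4 per S100a6 and Lgals1 per Lgals3 lay below native on MMP1 matrix and overlapped it on MMP13 matrix. The share of all gene pairs without overlap was not computed.

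Galectin-1, Lgals1, was the most abundant of the 10 genes, 5th of all genes by mean. It was at 1467 and 1598 units on native matrix, 1693 and 1805 on MMP1 and 1620 and 1647 on MMP13 matrix. The treated libraries were above native as deposited, with log2 folds of 0.19 (0.02 to 0.37) and 0.09 (-0.08 to 0.27), but with quantile scaling both turned to -0.22. No other setting turned them, and with 1 library left out they ran from 0.13 to 0.25 and from 0.03 to 0.15. Quantile scaling sets values by rank within a library. Rn45s lay below Lgals1 in both native libraries, at 927 and 768 units, and above it in the treated ones, at 1777 to 2631. The part of this in the turn was not tested, and the direction of Lgals1 depended on the scaling. Galectin-3, Lgals3, which unlike galectin-1 carries a tail that lets it oligomerise, was at 201 and 226 units on native matrix, 241 and 282 on MMP1 and 264 and 217 on MMP13 matrix. Its MMP1 libraries were above native and its MMP13 pair overlapped it, with log2 folds of 0.29 (-0.06 to 0.64) and 0.17 (-0.18 to 0.52). The MMP1 fold of Lgals3 was 0.18 without MMP1 replicate 2, and the MMP13 fold was 0.03 without MMP13 replicate 1 and 0.08 without native replicate 1.

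**Figure D3:**
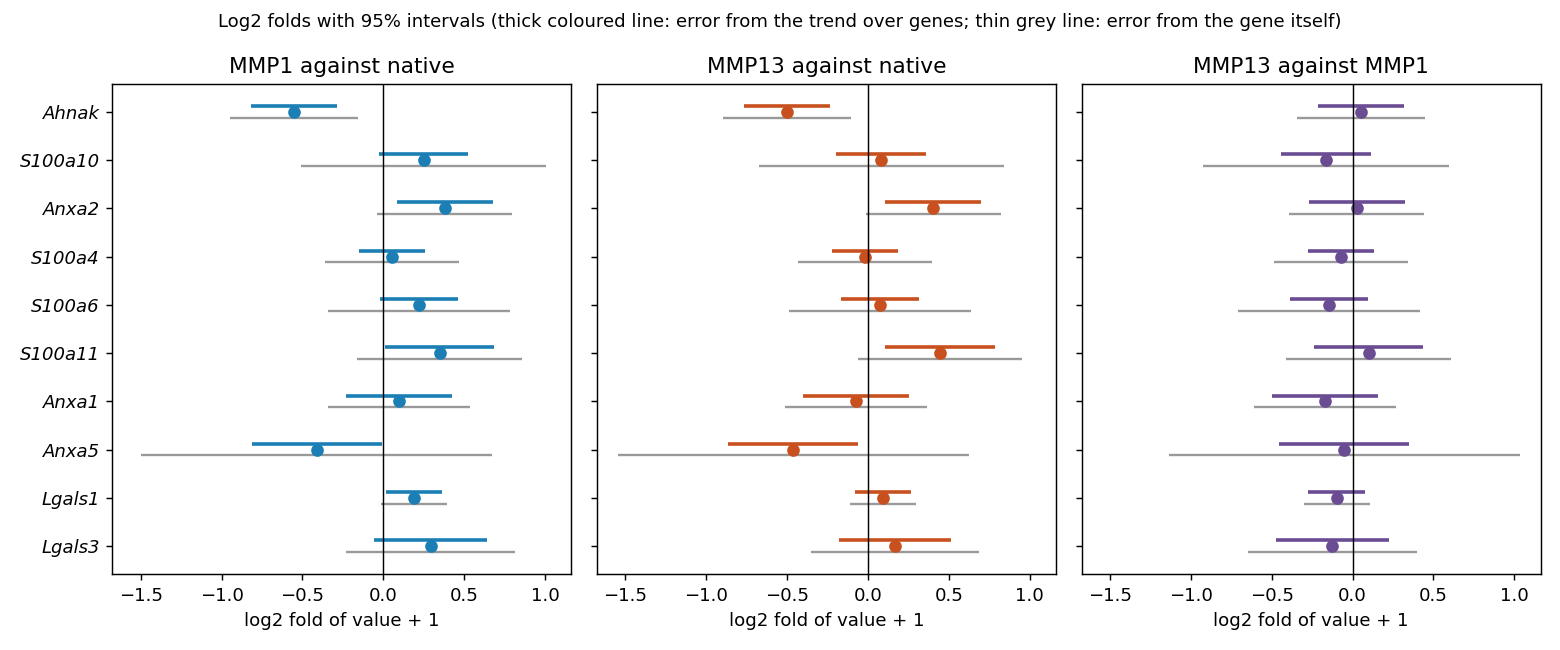
Log2 folds (horizontal axis, on value + 1) of the 10 genes in 3 comparisons, with 95% intervals from the trend over genes (thick coloured lines) and from the replicates of the gene itself with 3 degrees of freedom (thin grey lines). Ahnak is at -0.55 and -0.50 against native, Anxa2 at 0.38 and 0.41, and between the 2 treated matrices every interval covers 0.

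By mean over the 6 libraries the order was Lgals1 (1638 units), S100a4 (1033), S100a6 (657), Ahnak (508), S100a10 (441), Anxa2 (366), Anxa1 (280), S100a11 (255), Lgals3 (238) and Anxa5 (164). On native matrix alone Ahnak, at 637 ± 3.3 units (SD, n = 2), and S100a6, at 610 ± 13.6, were neighbours, and Ahnak was the higher in both libraries. On MMP1 matrix Ahnak, at 434 ± 25.7, was below S100a10, at 483 ± 55.3, in both libraries. Anxa2, at 304 ± 43.0 on native matrix, and Anxa1, at 280 ± 46.4, did not differ beyond their spread. The same held for Lgals3, at 213 ± 17.7, S100a11, at 211 ± 26.9, and Anxa5, at 198 ± 31.8.

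In the limma fit 1 of the 10 genes, Ahnak, passed on MMP1 matrix, as lower. There 0.151% of all tested genes passed and 0.0137% passed as lower, the latter being 1 gene, Ahnak itself. On MMP13 matrix it was again 1, Ahnak, where 0.412% passed and 0.137% passed as lower. Because Ahnak was chosen from these contrasts, neither count is a test of it. The limma adjusted p of Ahnak was 0.0286 on MMP1 and 0.0499 on MMP13 matrix, the latter just under the threshold. Ahnak no longer passed in either comparison with no filter on low values, with TMM factors, without the intensity trend or with its own spread. By DESeq2 it passed on MMP13 but not on MMP1 matrix. With any 1 of the 6 libraries left out it did not pass on MMP13 matrix, and on MMP1 matrix it passed only without MMP13 replicate 1. Of the other 9, 0 passed in either comparison by limma, edgeR or DESeq2. At an unadjusted p under 0.05 there were 4 and 3 by limma, where 8.24% and 8.05% of all tested genes fell. By edgeR there were 2 and 3 of the 9, where 9.47% and 9.49% of its 4574 genes fell. By DESeq2 there were 1 and 2, where 2.21% and 2.13% of its 14735 genes, many of them of few reads, fell. All 9 were genes of at least 100 units, whose fitted errors were smaller than those of genes at low levels. The share at this p among genes of that level was not computed, so these counts are not read as an excess.

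On MMP1 matrix 6 of the 10 genes lay above native in both libraries and 2 below, where 19.6% and 18.8% of all tested genes did so. One of the 6 was Lgals1, whose fold turned to -0.22 with quantile scaling. On MMP13 matrix 3 lay above and 1 below, against 18.9% and 18.6%. Among the 481 tested genes of at least 100 units, a class that holds all 10, these shares were 25.2% and 23.1% for MMP1, and 25.6% and 27.0% for MMP13. The median log2 fold of the 10 was 0.21 on MMP1 and 0.08 on MMP13 matrix, against 0.02 and 0.0088 over all genes tested. The 2 comparisons share the native libraries. Of the abundant genes, 2.08% had a fold as low as that of Ahnak on MMP1 matrix and 4.99% on MMP13 matrix, and 12.9% and 11.9% one as high as that of Anxa2.

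**Figure D4:**
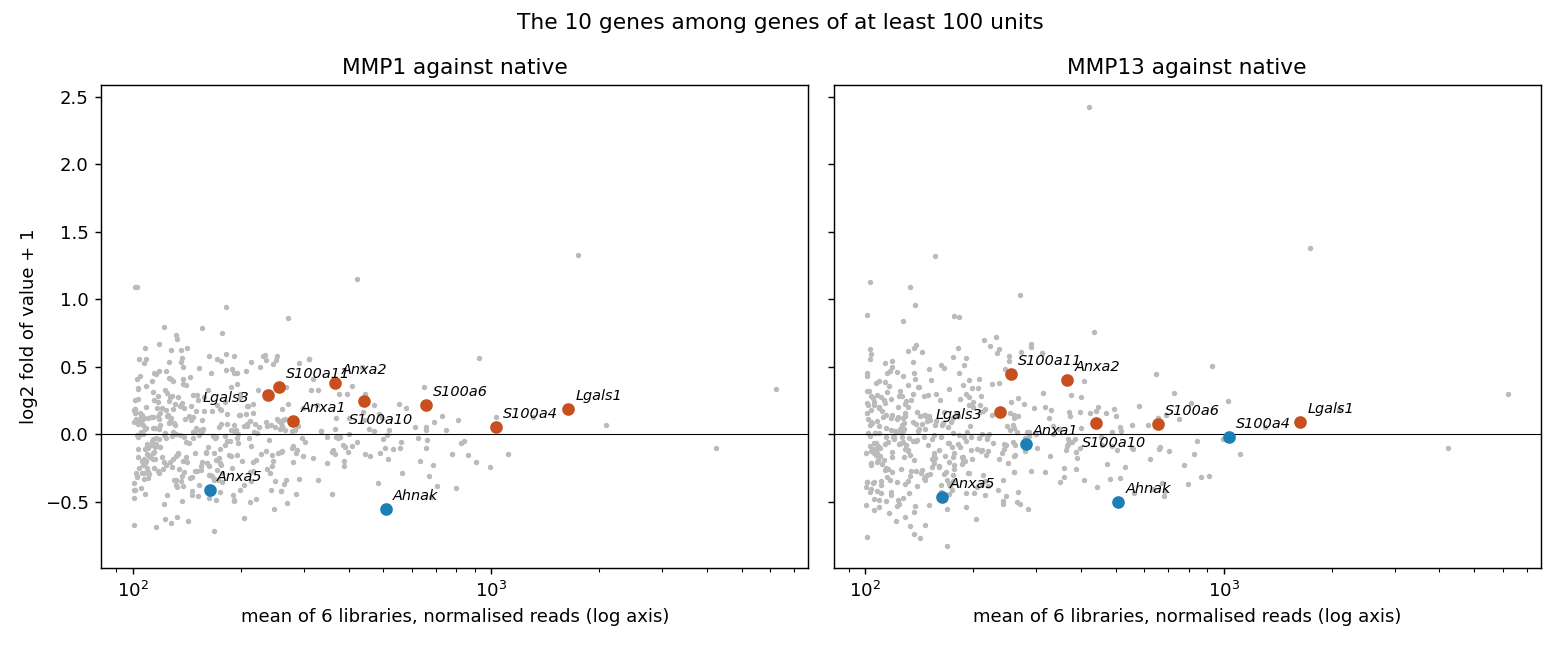
Log2 fold (vertical axis, on value + 1) against mean level (units, log axis) for the 481 tested genes of at least 100 units (grey), with the 10 genes in red where the fold is positive and in blue where it is negative. Ahnak, at a mean of 508 units, lies at the lower edge of genes of its level in both comparisons, and the S100 genes and Anxa2 lie within the grey cloud.

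Between the 2 treated matrices 0 of the 10 genes passed by limma, and each had an adjusted p of 1. This contrast is the difference of the 2 folds against native. Ahnak was chosen for being lower in both, and the other members with earlier results known, so the contrast is not independent of the choice. None of the 10 had an unadjusted p under 0.05 by limma, edgeR or DESeq2, where 5.22% of tested genes did by limma, 4.35% by edgeR and 0.909% by DESeq2, and 0.0412% passed by limma. For Ahnak the log2 fold of MMP13 against MMP1 was 0.05 (-0.21 to 0.32), for Anxa2 0.03 (-0.27 to 0.32) and for S100a10 -0.17 (-0.44 to 0.11). These intervals leave room for differences of -0.44 to 0.32 on the log2 scale. With the error of each gene itself they were wider: -0.34 to 0.45 for Ahnak, -0.39 to 0.44 for Anxa2 and -0.93 to 0.59 for S100a10. Anxa1 and Lgals1 were lower in both MMP13 libraries than in both MMP1 libraries, 2 of 10, where 15.4% of all tested genes were.

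The genes most like Ahnak were taken by the root mean square difference between log2 profiles over the 6 libraries, each centred on its own mean, among genes of at least 100 units. They were the chaperone gene Hsp90aa1 (0.0732), the ribosomal protein genes Rps18 (0.0774) and Rpl10a (0.0854), the nucleoside diphosphate kinase gene Nme2 (0.0782) and the RNA-binding protein gene Hdlbp (0.0797). Nme2, for instance, was at 833 and 826 units on native matrix, 621 and 585 on MMP1 and 573 and 641 on MMP13 matrix. Against the same measure, Anxa5 ranked 48th of 480 genes (0.179) and S100a11 ranked 420th (0.474). The partners S100a10, ranked 372nd (0.411), and Anxa2, ranked 410th (0.456), were less like Ahnak than most genes compared. Members outside the complex also ranked low, with Lgals3 365th (0.402), S100a6 346th (0.383) and Lgals1 275th (0.331). S100a4 was 240th (0.311) and Anxa1 230th (0.301). The profiles include the values against native that chose Ahnak, so these ranks are a description.

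The 7 lists of related genes, 104 genes in all, held 97 in the table and 68 tested genes. By limma 0 of these 68 passed in any of the 3 comparisons, with 11, 11 and 4 at an unadjusted p under 0.05 for MMP1 against native, MMP13 against native and MMP13 against MMP1. Of all tested genes 8.24%, 8.05% and 5.22% did so. By edgeR, which kept 59 of the list genes, 0 passed. By DESeq2 1 passed, the integrin gene Itgb1 on MMP13 matrix (adjusted p = 0.0441 over the genes DESeq2 kept). There DESeq2 gave an adjusted p to only 18 list genes, and in each of the other comparisons to 91. The median log2 fold of the 68 was -0.09 on MMP1 and -0.10 on MMP13 matrix.

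Among other binders of AHNAK, S100A10 and annexin A2 (11 of 17 genes tested), the median log2 fold was -0.15 and -0.02. Basigin, Bsg, the most abundant, lay at 762 and 795 units on native matrix, 637 and 622 on MMP1 and 588 and 626 on MMP13 matrix. Its log2 folds of -0.31 and -0.36 did not pass (limma adjusted p = 0.39 and 0.26). The cathepsin gene Ctsb had folds of -0.16 and 0.01, and the plasminogen activator gene Plat, whose product the annexin A2 complex binds, 0.51 and 0.35. Ahnak2, the relative of Ahnak, was not analysed here.

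Of the other annexins 5 of 9 were tested, with negative folds in 4 of 5 on MMP1 and 5 of 5 on MMP13 matrix and medians of -0.18 and -0.28. The most abundant were Anxa6 (0.19 and -0.03), Anxa7 (-0.03 and -0.40) and Anxa11 (-0.40 and -0.28). Of the other S100 genes 2 of 15 were tested: S100a16, at 26.4 to 40.5 units, had folds of 0.10 and 0.43, and S100a13 of 0.80 and 1.49 at no more than 7.30 units. S100pbp, which binds S100P, was not tested, at 8.76 units at most. S100a8, S100b and S100g had 0 reads in every library, which allows up to 3 reads, or 2.21 to 5.04 units, in each.

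Among other galectins and galectin ligands (8 of 15 tested), Itgb1, the integrin beta 1 chain, was at 649 and 668 units on native matrix, 570 and 511 on MMP1 and 479 and 497 on MMP13 matrix. Its treated libraries were all below native, with log2 folds of -0.29 and -0.43 (limma adjusted p = 0.50 and 0.12). Lamp1 had folds of 0.12 and 0.17, and the galectin-3 binding protein gene Lgals3bp 0.12 and -0.16. No other galectin came near Lgals1 or Lgals3: the highest single value was 8.40 units, of Lgals2.

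Among S100 targets (11 of 12 tested; medians -0.13 and -0.16) the abundant members included Bsg and the small calpain subunit gene Capns1 (0.11 and -0.28). Membrane repair and traffic genes (19 of 23 tested) had medians of -0.03 and -0.18, with the sphingomyelinase gene Smpd1 at -0.19 and -0.27 and the calcium-binding Pdcd6 at -0.53 and -0.26, besides Capns1. Calcium sensors outside the S100 family (16 of 17 tested) had medians of -0.06 and -0.02. The chaperone calreticulin, Calr, had folds of -0.24 and -0.04, and Calu of -0.10 and -0.10.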

How the data were processed

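One table with 1 column for each of the 6 libraries was used. The submitters' processing notes list bcl2fastq, TopHat, DESeq and the rat build rn5. How genes were counted, with which annotation and strand use, and whether the 8-nucleotide molecular identifiers were collapsed is not given in the sources used here. Values of the deposited table (signal) are gene counts after division, by the authors, by the size factor of each library: 100% of the non-zero values of every library are whole numbers of its smallest value, within 0.01 reads. Whole reads were recovered this way, and floors cover counting error only.

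Log2(value + 1) was fitted with limma 3.58.1 in R 4.3.3 (intensity trend, 1 coefficient per group, all 6 libraries, no replicate block) for genes of at least 5 units in at least 2 libraries (7284). Genes passed at a Benjamini-Hochberg adjusted p under 0.05. Folds are on that scale. The fit put all weight on the trend over genes (21852 degrees of freedom, 3 of them residual per gene), so intervals with the gene's own error are also given. The recovered reads were tested with edgeR 4.0.16 (quasi-likelihood, 4574 genes) and DESeq2 1.42.0. Scripts were tested on simulated data.

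The members, gene lists and tests were chosen with earlier results of these data known. Named by rule were the 10 members, the 5 genes most like Ahnak, and, per list, genes that passed or else the 3 most abundant, of which 2 are not reported here. Itgb1, Hltf, Ptprc, Csf1r, Cd14, Fn1, Pdgfrb, Sparc and Scx, where outside that rule, were named after their values were seen. So were S100pbp, S100a13, S100a3, S100a5, S100a8, S100b, S100g and Lgals2. Promoter sequences are from RefSeq (GRCr8).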

Additional observations from a re-analysis of the deposited data

Results flagged for a closer look

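Anxa1 lay above the native mean in both MMP1 libraries and below it in both MMP13 libraries. The difference itself, MMP13 against MMP1, was a log2 fold of -0.17 (SE 0.17) and did not pass (limma adjusted p = 1). Both treated pairs, at 296 and 298 and at 264 and 264 units, lay inside the native range of 247 to 312 units.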

How the results depend on the processing

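Of 570 refitted folds (30 folds under 19 settings), 519 kept their direction and side of the threshold, 26 turned sign and 25, all of Ahnak, were no longer called. Instead of 1 member, 0 were called on MMP1 matrix with no filter, TMM factors, no trend, DESeq2 and each gene's own spread. On MMP13 matrix 0 were called with no filter, pseudocounts of 5 and 0.5, TMM factors, no trend, the 2 groups compared alone, each gene's own spread, and genes of identical reads counted once. The last 2 settings were chosen after seeing the data. With 1 library left out the count was 0 to 1 on MMP1 and 0 in all 6 fits on MMP13 matrix; where this left 1 sample in a group, it was assumed to vary like the others. With the replicate block 1 was called on MMP1 and 0 on MMP13 matrix. Deviations of same-numbered libraries correlated at 0.0059, -0.07 and -0.04 over 7284 genes, so no pairing by number was seen. Counting error in genes of few reads lowers such a correlation, so a pairing is not excluded.

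Partner and family genes called on MMP13 matrix were 1, Itgb1, with quantile scaling and by DESeq2 and 0 to 1 with a library left out. For MMP13 against MMP1 they were 0 to 1. The added call was Hltf, without MMP13 replicate 1. Quantile scaling gave Lgals1 -0.22 and -0.22 against native, S100a4 -0.021 on MMP1 matrix and Anxa2 -0.012 for MMP13 against MMP1. TMM factors gave S100a4 -0.0067 on MMP1 matrix, and edgeR gave it 0.0021 on MMP13 matrix.

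With 1 library left out, the folds that turned sign had these ranges. On MMP1 matrix they were -0.016 to 0.12 for S100a4 and -0.072 to 0.27 for Anxa1. On MMP13 matrix they were -0.16 to 0.33 for S100a10, -0.16 to 0.12 for S100a4, -0.13 to 0.28 for S100a6 and -0.24 to 0.10 for Anxa1. For MMP13 against MMP1 they were -0.088 to 0.19 for Ahnak, -0.41 to 0.076 for S100a10, -0.033 to 0.086 for Anxa2 and -0.21 to 0.069 for S100a4. There S100a6 ran from -0.35 to 0.059, S100a11 from -0.0060 to 0.20, Anxa5 from -0.36 to 0.26 and Lgals3 from -0.27 to 0.018. The causes were not tested. In the library where it had the fewest reads, the counting error (1 SD) of a member ran from 3.19% for Lgals1 to 5.92% for Ahnak and 10.8% for Anxa5, at 86 reads.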
